A study of Mus musculus with 23 samples.

Results

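The genes described here are 44 genes of the cell cycle and of DNA replication, chosen by name from the 55449 genes of the colon RNA-seq table, and all 44 were measured. They comprise 4 cyclins and kinases of the G1-S transition, 3 transcription factors, 10 genes of origin licensing and the replicative helicase, 5 genes of the replication fork and of nucleotide supply, 12 mitotic cyclins, kinases and checkpoint genes, 8 spindle and kinetochore genes, and *Mki67* with *Top2a*. The libraries came from the colon of male C57BL/6 Cdx2Apcf/w mice, in which Cre recombinase under the Cdx2 promoter acts on a single floxed allele of the tumor suppressor *Apc*. All 6 groups shared this genotype, an antibiotic cocktail before colonization, a start at 6 to 8 weeks of age and a high-fat diet (HFD) with 60% of its energy as fat. BSHlow mice were colonized with *Bacteroides fragilis* 638R (BF638R bsh-, with an empty vector), and BSHhigh mice with the same strain carrying the bile salt hydrolase gene of strain NCTC9343 (BF638R bsh+), and the labels and the study's methods give different intervals between doses of bacteria. After 2 weeks, normal colon gave 4 BSHlow and 4 BSHhigh libraries. After 12 weeks, non-tumor tissue gave 4 libraries of each kind, and tumors gave 4 BSHlow and 3 BSHhigh libraries. The labels do not say which libraries came from the same mouse, so that p-values measure the spread between libraries.

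In the colon, dividing cells sit in the lower crypt, where Wnt signaling keeps progenitors in cycle, and loss of *Apc* leaves this signaling on. D-type cyclins with CDK4 and E-type cyclins with CDK2 phosphorylate the RB protein, which releases E2F factors to switch on genes for DNA synthesis. Genes of G2 and mitosis are switched on later through MYBL2 and FOXM1, and much of their control lies in promoter elements called the CHR and the CCAAT box. Promoter sequence was matched by symbol to RefSeq for GRCm38.p6, the patched form of mm10, and 36 of the 44 genes had an entry. In the 250 bases before the start, the CHR letters TTTGAA or TTCGAA occurred on either strand in 13 of 36 members (36.1%) and in 17.7% of 16522 protein-coding genes. CCAAT, on either strand, occurred in 27 members (75%) and in 39.2% of those genes, and CHR and CCAAT together in 12 (33.3%) and in 6.61%. The E2F letters TTTCCCGC, TTTGGCGC, TTTCGCGC or TTTGCCGC occurred in 7 members (19.4%) and in 2.74% of those genes. Among members with an entry, the E2F letters were in 50% of the licensing and helicase genes and in 10% of the mitotic cyclin, kinase and checkpoint genes, whereas CHR was in 37.5% and 50%, and CCAAT in 75% and 90%. These matches describe letters in a window, and binding was not measured. Matches can overlap, as where TTTCGCGC runs into the reverse complement of TTTGGCGC.

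The promoters of 3 mitotic genes (*Cdk1*, *Top2a* and *Plk1*) and 3 replication genes (*Mcm2*, *Mcm5* and *Mcm6*) are shown as examples. They hold these letters in several combinations, some of which are shared. They were chosen with the values of these genes known. *Cdk1* and *Top2a* hold CHR and CCAAT letters, with E2F letters in *Cdk1* as well, and *Plk1* holds CCAAT without a CHR. *Mcm2* holds CHR and CCAAT letters, and *Mcm5* and *Mcm6* hold E2F and CCAAT letters without a CHR. Capitals mark the matches. The windows lie at chr10:69352913-69353162, minus strand (*Cdk1*), chr11:99024190-99024439, minus strand (*Top2a*), chr7:122159185-122159434, plus strand (*Plk1*), chr6:88898781-88899030, minus strand (*Mcm2*), chr8:75109259-75109508, plus strand (*Mcm5*) and chr1:128359706-128359955, minus strand (*Mcm6*).
Cdk1: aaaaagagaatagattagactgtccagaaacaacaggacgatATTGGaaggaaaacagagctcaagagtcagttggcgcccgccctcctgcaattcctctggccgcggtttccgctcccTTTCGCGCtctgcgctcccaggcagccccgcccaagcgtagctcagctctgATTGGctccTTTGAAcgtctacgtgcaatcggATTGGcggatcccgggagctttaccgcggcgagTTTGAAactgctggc
Top2a: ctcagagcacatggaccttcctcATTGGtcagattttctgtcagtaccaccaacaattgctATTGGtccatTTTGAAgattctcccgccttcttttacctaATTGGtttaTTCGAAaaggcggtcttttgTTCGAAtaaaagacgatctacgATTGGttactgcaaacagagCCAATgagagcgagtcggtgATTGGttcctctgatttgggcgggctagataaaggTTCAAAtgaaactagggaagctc
Plk1: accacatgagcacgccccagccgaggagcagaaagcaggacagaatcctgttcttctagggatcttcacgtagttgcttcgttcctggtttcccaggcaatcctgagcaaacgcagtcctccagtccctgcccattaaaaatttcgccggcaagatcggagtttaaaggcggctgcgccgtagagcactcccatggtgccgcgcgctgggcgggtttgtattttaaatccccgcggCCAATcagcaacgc
Mcm2: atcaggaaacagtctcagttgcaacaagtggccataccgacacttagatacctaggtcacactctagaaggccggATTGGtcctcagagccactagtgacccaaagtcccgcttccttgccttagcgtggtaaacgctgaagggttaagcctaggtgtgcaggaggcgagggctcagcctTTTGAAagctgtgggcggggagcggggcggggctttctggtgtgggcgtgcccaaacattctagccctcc
Mcm5: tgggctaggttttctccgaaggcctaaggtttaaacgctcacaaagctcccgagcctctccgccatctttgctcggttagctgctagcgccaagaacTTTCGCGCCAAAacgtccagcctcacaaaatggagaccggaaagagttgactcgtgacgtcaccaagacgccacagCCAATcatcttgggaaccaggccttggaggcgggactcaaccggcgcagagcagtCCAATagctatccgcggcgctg
Mcm6: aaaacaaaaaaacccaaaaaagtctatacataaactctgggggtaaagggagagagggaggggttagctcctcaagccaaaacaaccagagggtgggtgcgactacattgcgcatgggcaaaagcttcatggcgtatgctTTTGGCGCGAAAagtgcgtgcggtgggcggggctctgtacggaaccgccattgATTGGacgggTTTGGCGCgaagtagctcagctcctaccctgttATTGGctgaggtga

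Levels are given as normalised CPM, that is expected counts per 1000000 counts of a library's scaled total. Single genes are compared between libraries, never with one another, since gene length was not taken into account. Sums over lists of genes, and ratios of such sums, are likewise compared only between libraries. The libraries held 12401388 to 17903008 expected counts. Of the members, 11 overlap another gene that held at least 10% of their counts (*Ccne2*, *Cdk4*, *Cdt1*, *Mcm7*, *Cdc45*, *Gins2*, *Pclaf*, *Ccna2*, *Plk1*, *Cdc20* and *Kif20a*), and whether strand was used in counting is not given in the sources used here, so that their levels are less certain. In the 16 libraries outside tumors, *Apc* was between 67.4 and 190.2 CPM, and in the 7 tumors between 8.74 and 28.6. It was at 12.3, 10.5, 11.1 and 8.74 CPM in BSHlow tumors and higher, at 25.1, 28.6 and 12.5, in BSHhigh tumors. Marker lists were summed to check the labelled tissue. Epithelial markers summed to 4941 to 8734 CPM in tumors and to 10023 to 18502 elsewhere. Crypt stem cell markers summed to 537 to 767 CPM in tumors and to 131 to 235 elsewhere, whereas goblet cell markers summed to 50.1 to 111.7 in BSHlow tumors, 498 to 4220 in BSHhigh tumors and 11697 to 32477 elsewhere. Differentiated colonocyte markers summed to 52.1 to 767 CPM in tumors, 1764 to 4505 in non-tumor tissues and 11145 to 23250 at 2 weeks. The excess at 2 weeks was mostly *Car1*, with means of 14482 (BSHlow) and 10071 (BSHhigh) CPM, against 403.7 and 147.8 in non-tumor tissue. In BSHlow mice the means of *Slc26a3*, *Car4*, *Aqp8* and *Ceacam20* were higher in non-tumor tissue than at 2 weeks, and that of *Krt20* was lower. In BSHhigh mice all these means were lower in non-tumor tissue. Smooth muscle markers summed to 1581 to 8825 CPM in non-tumor tissues, 131 to 369.7 in tumors and 8.35 to 214 at 2 weeks. The groups thus differed in these markers, and in bulk tissue fewer cells of a kind and less RNA per cell cannot be told apart.

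To learn how tumors differed from non-tumor tissue, the 15 libraries of 12 weeks were compared. In BSHlow mice, 43 of 44 members were higher in tumors at an adjusted p under 0.05 and none was lower, where 33.3% of the 16454 genes tested were called higher and 32.2% lower. The median log2 fold change of the members was 1.46, against 0.04 over all genes tested, and the member not called was *Ccnb2*, a cyclin B (log2 fold change 0.61, SE 0.29, adjusted p = 0.0768). For 36 members the log2 fold change was also over 1, which 16.7% of genes combined with a call. In BSHhigh mice, 40 members were higher and none was lower, where 29.4% of genes were called higher and 27.2% lower, and the median of the members was 1.16. A log2 fold change over 1 came with the call in 29 members and in 14.6% of genes. The members not called were *Ccne2* (adjusted p = 0.305), *Tyms* (adjusted p = 0.125), *Cenpe* (adjusted p = 0.0744) and *Ccnb2* (adjusted p = 0.0583). The tumor and non-tumor libraries did not overlap in 39 members in BSHlow mice and in 41 in BSHhigh mice, where all the tumors were higher in 29.3% and 32.2% of genes tested. For 25 of the 44 members, each of the 7 tumors was above each of the 16 other libraries, which held for 17.6% of the genes tested. Crypt stem cell markers moved with this result, 5 of 6 higher and 1 lower in each kind of mouse, and all 6 goblet cell markers were lower. Smooth muscle markers also summed lower in tumors (131 to 369.7 CPM, against 1581 to 8825 in non-tumor tissue). Endothelial markers summed higher there (136.7 to 174.7 CPM, against 46.2 to 99.8). Their part in the result was not tested.

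**Figure D1:**
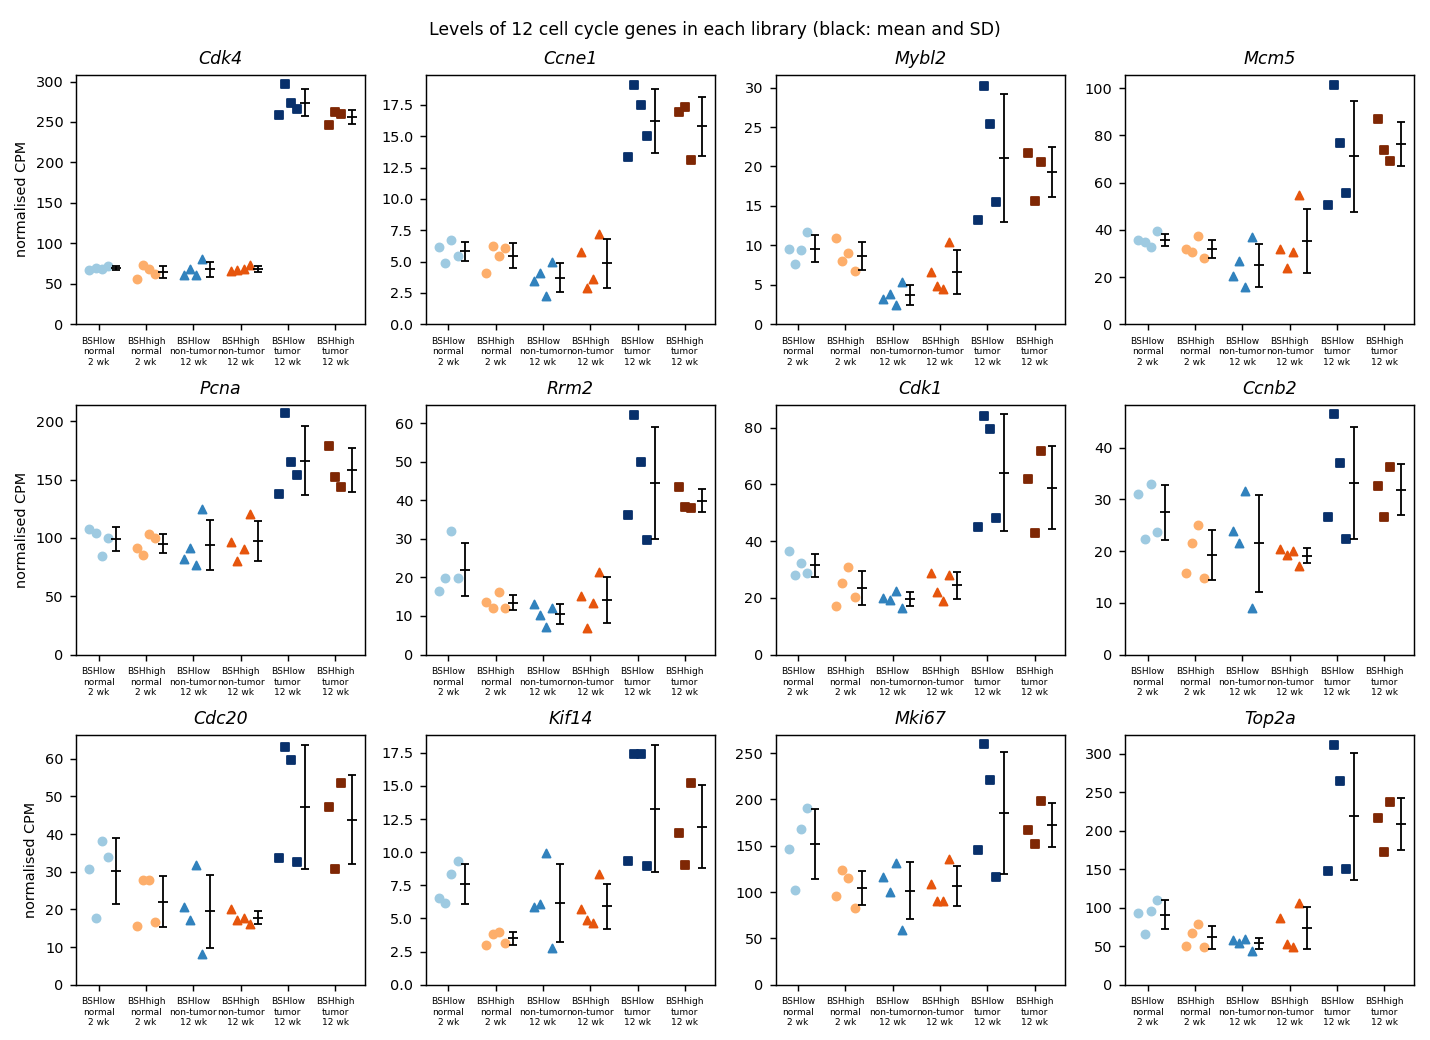
Normalised CPM (linear axes from 0) of 12 of the 44 genes in each of the 23 libraries, with 1 point per library and the mean and SD of each group in black. *Cdk4* lies between 246 and 297 CPM in the 7 tumors and between 56.1 and 80.4 in the other 16 libraries, whereas the tumors overlap with at least 1 other library for *Ccnb2*, *Cdc20*, *Kif14*, *Mcm5*, *Mki67* and *Rrm2*.

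Among the genes of the G1-S transition, *Cdk4*, which encodes the kinase partner of D-type cyclins, varied little between libraries of a group. In CPM, the non-tumor libraries were at 61.4, 68.6, 61.4 and 80.4 in BSHlow and 65.5, 67.3, 68.2 and 73.4 in BSHhigh mice. The tumors were at 258, 297, 274 and 266 in BSHlow and 246, 262 and 259.5 in BSHhigh mice. The level in tumors was about 3.98 times that of non-tumor tissue in BSHlow mice (log2 fold change 1.99, SE 0.10, adjusted p = 5.69e-09) and 3.71 times in BSHhigh mice (log2 fold change 1.89, SE 0.10, adjusted p = 3.44e-08), with no overlap. *Ccne1*, a cyclin E, was at 3.48, 4.12, 2.25 and 4.97 CPM in BSHlow and 5.75, 2.86, 3.64 and 7.18 in BSHhigh non-tumor tissue. Its tumors were at 13.3, 19.1, 17.5 and 14.99 CPM (BSHlow) and 16.9, 17.4 and 13.1 CPM (BSHhigh). The tumors were all above the non-tumor libraries, with log2 fold changes of 2.11 (SE 0.28) and 1.70 (SE 0.29). *Ccne2*, the other cyclin E, was at 8.31, 5.6, 6.67 and 12.3 CPM in BSHhigh non-tumor tissue and 12.4, 11.1 and 8.39 in BSHhigh tumors. These overlapped, and its log2 fold change of 0.36 (SE 0.29) was the smallest of the members in BSHhigh mice. *Cdk2*, the partner of cyclin E, was higher in tumors of both kinds of mice, by 1.19 and 0.47 on the log2 scale.

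Of the transcription factors, *Mybl2*, which encodes the B-MYB protein of S phase and G2, had the largest log2 fold change of the members in BSHlow mice, 2.48 (SE 0.34, adjusted p = 1.78e-05). It was at 3.19, 3.84, 2.38 and 5.35 CPM in BSHlow non-tumor tissue and 13.2, 30.3, 25.4 and 15.5 in BSHlow tumors. In BSHhigh mice it was at 6.68, 4.85, 4.48 and 10.5 CPM in non-tumor tissue and 21.7, 15.7 and 20.5 in tumors (log2 fold change 1.54, SE 0.34, adjusted p = 0.00158). Neither pair of groups overlapped, although replicate 4 of BSHhigh non-tumor tissue stood above the rest of its group. *E2f1*, the founding activator E2F, was at 5.19, 6.81, 3.41 and 9.03 CPM in BSHlow and 7.43, 6.78, 6.54 and 9.12 in BSHhigh non-tumor tissue. In tumors it was at 12.02, 22.9, 17.9 and 16.5 CPM (BSHlow) and 18.8, 15.6 and 10.96 CPM (BSHhigh). The rise was 1.48 (SE 0.28) and 1.01 (SE 0.29) on the log2 scale, with no overlap. *Foxm1*, an activator of mitotic genes, was at 11.6, 9.73, 14.4 and 6.84 CPM in BSHlow and 13.2, 8.15, 8.73 and 13.2 in BSHhigh non-tumor tissue. In tumors it was at 24.9, 38.98, 33.9 and 20.7 CPM (BSHlow) and 28.2, 24.8 and 31.6 CPM (BSHhigh). They were again all above the non-tumor libraries (1.46 and 1.38 on the log2 scale).

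All 10 genes of origin licensing and the helicase were higher in tumors of both kinds of mice, and none overlapped with non-tumor tissue. Their log2 fold changes were between 0.97 and 2.11 in BSHlow mice and between 0.74 and 1.58 in BSHhigh mice. *Cdc6*, a loader of the MCM helicase, stood at the upper end, at 2.45, 2.63, 3.41 and 6.39 CPM in BSHlow non-tumor tissue and 13.8, 23.4, 16.1 and 12.2 in BSHlow tumors. In BSHhigh mice it was at 5.25, 3.86, 4.302 and 7.404 CPM in non-tumor tissue and 16.1, 17.7 and 13.01 in tumors. The log2 fold changes were 2.11 (SE 0.32) and 1.58 (SE 0.33), while *Cdt1*, its partner in loading, stood at the lower end (0.97 and 0.74). Of the helicase subunits, *Mcm2* was at 19.7, 24.3, 20.6 and 37.99 CPM in BSHlow and 28.8, 24.8, 25.9 and 37.2 in BSHhigh non-tumor tissue. Its tumors were at 60.8, 94.1, 82.1 and 76.6 CPM (BSHlow) and 76.7, 77 and 67.2 CPM (BSHhigh), above every non-tumor library. *Mcm5* was at 20.3, 26.7, 15.8 and 37.1 CPM (BSHlow) and 31.8, 23.6, 30.7 and 54.7 CPM (BSHhigh) in non-tumor tissues. It was at 50.3, 101, 76.9 and 55.5 CPM (BSHlow) and 86.9, 73.7 and 68.96 CPM (BSHhigh) in tumors. The BSHlow tumor replicate 1 of *Mcm5* was below the BSHhigh non-tumor replicate 4, though within each kind of mouse the tissues did not overlap. The other subunits, *Mcm3*, *Mcm4*, *Mcm6* and *Mcm7*, and the helicase activators *Cdc45* and *Gins2* were higher by 1.17 to 1.65 in BSHlow mice.

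Among the genes of the fork and of nucleotide supply, *Rrm2*, which encodes the regulated subunit of ribonucleotide reductase, was at 13.04, 10.1, 7.02 and 12.1 CPM in BSHlow and 15.1, 6.91, 13.3 and 21.4 in BSHhigh non-tumor tissue. Its tumors were at 36.2, 62.1, 49.96 and 29.7 CPM (BSHlow) and 43.5, 38.4 and 37.98 CPM (BSHhigh), all higher (2.05 and 1.49 on the log2 scale). *Pcna*, the sliding clamp of the polymerases, moved less. It was at 81.7, 91.2, 77.1 and 125 CPM (BSHlow) and 96.7, 80.5, 90.5 and 121 CPM (BSHhigh) in non-tumor tissues. In tumors it was at 138, 207, 165 and 154 CPM (BSHlow) and 179, 152 and 143 CPM (BSHhigh). Its log2 fold changes were 0.80 (SE 0.17) and 0.70 (SE 0.18), and its counts were not whole in 22 of 23 libraries, so that RSEM split reads between it and other genes. *Tyms*, the thymidylate synthase gene, was at 21.6, 25.1, 19.8 and 29.1 CPM (BSHlow) and 29.3, 24.4, 22.96 and 33.1 CPM (BSHhigh) in non-tumor tissues. It was at 29.8, 53.4, 43.5 and 31.01 CPM (BSHlow) and 42.9, 30.4 and 34.6 CPM (BSHhigh) in tumors. The groups overlapped in BSHhigh mice, and the tumors were only just above in BSHlow mice (log2 fold change 0.70, SE 0.19, adjusted p = 0.00528). *Pclaf*, a partner of PCNA, and *Rrm1*, the other reductase subunit, were higher by 2.01 and 1.38 in BSHlow and by 1.32 and 1.09 in BSHhigh mice.

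Of the 12 mitotic cyclins, kinases and checkpoint genes, 11 were higher in BSHlow tumors and 11 in BSHhigh tumors, with *Ccnb2* not called in either. *Cdk1*, the mitotic kinase, was at 19.8, 19.1, 22.4 and 16.4 CPM in BSHlow and 28.8, 22.03, 18.96 and 28.1 in BSHhigh non-tumor tissue. Its tumors were at 44.9, 84.1, 79.4 and 48.1 CPM (BSHlow) and 61.8, 42.8 and 71.9 CPM (BSHhigh). They did not overlap with non-tumor tissue, and the log2 fold changes were 1.71 (SE 0.22) and 1.26 (SE 0.23). *Ccnb1*, the main cyclin B, was at 20.2, 19.2, 26.8 and 9.93 CPM (BSHlow) and 23.1, 20.3, 18 and 23.3 CPM (BSHhigh) in non-tumor tissues. In tumors it was at 36.2, 71.8, 64.3 and 36.1 CPM (BSHlow) and 49.2, 36.6 and 56.8 CPM (BSHhigh). The tumors were all higher (1.44 and 1.16 on the log2 scale), and its counts were not whole in 13 of 23 libraries. *Ccnb2* was at 23.9, 21.5, 31.6 and 8.902 CPM (BSHlow) and 20.4, 19.2, 19.9 and 17.1 CPM (BSHhigh) in non-tumor tissues. It was at 26.6, 46.4, 36.99 and 22.3 CPM (BSHlow) and 32.7, 26.6 and 36.3 CPM (BSHhigh) in tumors. Replicate 3 of BSHlow non-tumor tissue lay above 2 of the BSHlow tumors, and replicate 4 was the lowest of all the libraries for this gene.

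*Plk1*, a kinase of mitotic entry, was at 14.7, 12.7, 16.97 and 5.55 CPM in BSHlow and 13.2, 12.2, 9.51 and 17.1 in BSHhigh non-tumor tissue. Its tumors were at 32.8, 60.8, 53.3 and 29.6 CPM (BSHlow) and 45.3, 38.9 and 50.8 CPM (BSHhigh). It rose by 1.81 and 1.79 on the log2 scale, the latter the largest of this list in BSHhigh mice. *Cdc20*, which activates the anaphase-promoting complex, was at 20.7, 17.1, 31.7 and 8.26 CPM (BSHlow) and 20.1, 17.2, 17.6 and 16.1 CPM (BSHhigh) in non-tumor tissues. In tumors it was at 33.6, 63.03, 59.5 and 32.6 CPM (BSHlow) and 47.2, 30.7 and 53.5 CPM (BSHhigh). Replicate 3 of BSHlow non-tumor tissue, at 31.7, was just below the lowest BSHlow tumor, at 32.6 (1.27 and 1.29 on the log2 scale). *Birc5*, which encodes survivin of the chromosomal passenger complex, was at 18.4, 15.9, 20.3 and 10.6 CPM (BSHlow) and 21.2, 17.9, 14.97 and 19.8 CPM (BSHhigh) in non-tumor tissues. It was at 27.1, 48.5, 42.8 and 24.6 CPM (BSHlow) and 37.6, 26.3 and 40.2 CPM (BSHhigh) in tumors. Its rise was 1.11 (SE 0.23) and 0.90 (SE 0.25). The Aurora kinase genes *Aurka* and *Aurkb*, the spindle checkpoint genes *Bub1* and *Bub1b*, *Ccna2* (cyclin A) and *Ube2c* (the E2 enzyme of the anaphase-promoting complex) were higher by 0.96 to 1.88 in BSHlow and by 0.85 to 1.46 in BSHhigh mice.

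All 8 spindle and kinetochore genes were higher in BSHlow tumors, by 0.94 (*Cenpf*) to 1.60 (*Kif15*), and 7 in BSHhigh tumors. *Kif11*, the motor that pushes spindle poles apart, was at 24.7, 22.7, 27.1 and 15.2 CPM in BSHlow and 30.2, 20.9, 20.5 and 38.4 in BSHhigh non-tumor tissue. Its tumors were at 34.5, 70.6, 53.2 and 35.99 CPM (BSHlow) and 45.7, 37.4 and 51.6 CPM (BSHhigh). The BSHhigh groups overlapped through replicate 4 of non-tumor tissue (log2 fold change 0.70, SE 0.27, adjusted p = 0.0378). *Mki67*, which encodes the proliferation antigen Ki-67, and *Top2a*, the topoisomerase of condensing chromosomes, differed in size. *Mki67* was at 116, 100.01, 131 and 59.2 CPM in BSHlow and 108, 89.98, 90.3 and 136 in BSHhigh non-tumor tissue. In tumors it was at 145, 259.6, 221 and 117 CPM (BSHlow) and 167, 151 and 199 CPM (BSHhigh). Tumors were 1.81 times non-tumor tissue in BSHlow mice (log2 fold change 0.85, SE 0.26, adjusted p = 0.00918), with overlap, and 1.62 times in BSHhigh mice (log2 fold change 0.69, SE 0.27, adjusted p = 0.0423), without. *Top2a* was at 57.4, 54.3, 59.6 and 43.4 CPM (BSHlow) and 86.3, 52.7, 49.02 and 106 CPM (BSHhigh) in non-tumor tissues. It was at 148, 311, 264 and 151 CPM (BSHlow) and 216, 172 and 237 CPM (BSHhigh) in tumors. The tumors were 4.02 and 2.83 times non-tumor tissue, with no overlap (adjusted p = 1.98e-05 and 0.000519).

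**Figure D2:**
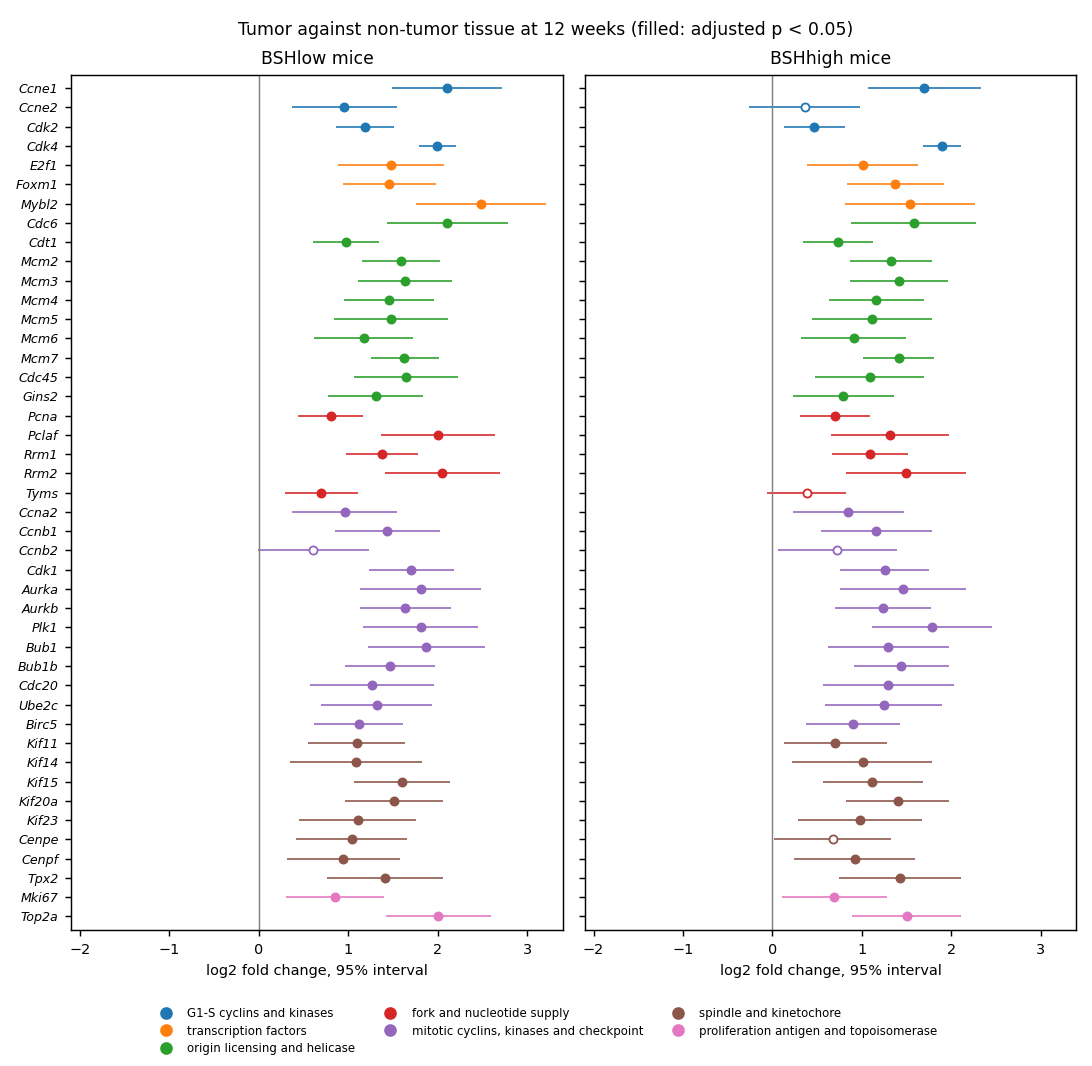
Log2 fold change of each of the 44 genes, tumor against non-tumor tissue, with 95% intervals from edgeR, in BSHlow mice (left) and BSHhigh mice (right), colored by role and filled where the adjusted p was under 0.05. All 44 points lie above 0 in both panels, with 43 and 40 filled, and *Cdk4* has the narrowest interval (1.79 to 2.20 in BSHlow mice).

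Of 100 further genes of the pathway in 6 lists, 78 were higher and 8 lower in BSHlow tumors, where 33.3% and 32.2% of all genes tested were. In BSHhigh tumors 65 were higher and 8 lower, where 29.4% and 27.2% of all genes were. All 25 genes of condensin, kinetochore and spindle were higher in BSHlow mice and 24 in BSHhigh mice. Of 30 genes of origin recognition and the polymerases, 26 and 19 were higher and none was lower in either. The 7 inhibitors of cyclin-dependent kinases divided, with 2 higher and 3 lower in each kind of mouse. *Cdkn2a*, which encodes the INK4A and ARF proteins, was at 0.222, 0.0572, 0.204 and 0.387 CPM in BSHlow non-tumor tissue and 24.3, 16.1, 10.4 and 5.32 in BSHlow tumors (log2 fold change 5.97, SE 0.66, adjusted p = 2.74e-06). In BSHhigh mice it was at 0.437, 0.498, 0.182 and 0 CPM in non-tumor tissue and 11.8, 6.96 and 10.8 in tumors. It was thus near 0 outside tumors, which leaves the size of the fold uncertain. *Cdkn1c*, the gene of p57, was also higher (3.12 in BSHlow and 3.46 in BSHhigh mice). *Cdkn1b*, the gene of p27, was at 94.03, 80.6, 84.2 and 81.4 CPM in BSHlow non-tumor tissue and 32.3, 40.9, 34.1 and 32.7 in BSHlow tumors (log2 fold change -1.30, SE 0.10, adjusted p = 8.71e-08). It was the lowest of those called in BSHhigh mice too (-1.20), followed by *Rb1* (-1.0) in BSHlow mice and by *Cdkn2b* (-1.08), the gene of p15, in BSHhigh mice. *Ccnd1*, the cyclin D1 partner of CDK4, which was chosen after its values were seen, was higher by 2.15 in BSHlow (adjusted p = 1.39e-06) and 1.53 in BSHhigh tumors (adjusted p = 7.61e-05).

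To learn whether BSHhigh changed the genes within tumors, 4 BSHlow and 3 BSHhigh tumors were compared. None of the 44 members was called by edgeR, where 0.47% of the 15325 genes tested were called higher and 0.0392% lower. No member had an unadjusted p under 0.05, where 1946 of all genes tested did. DESeq2 and limma-voom also called none. The log2 fold changes were between -0.23 (*Ccne2*) and 0.10 (*Mcm5*), with a median of -0.09 against -0.03 over all genes tested, and the groups overlapped for every member, where 7.93% of genes had all BSHhigh tumors higher and 3.88% all lower. The sign of the median rested on single libraries. Without replicate 2 of BSHlow tumors it was 0.09 with 39 members above 0, without replicate b of BSHhigh tumors it was 0.02 with 26 above 0, and without each of the others it was between -0.20 and -0.02. *Ccne2* was at 8.83, 15.9, 15.1 and 9.67 CPM in BSHlow and 12.4, 11.1 and 8.39 in BSHhigh tumors. For *Mki67*, the difference was -0.11 with a 95% interval of -0.71 to 0.49, and for *Top2a* -0.07 with an interval of -0.70 to 0.56. *Cdk4* had the narrowest interval (-0.11, -0.30 to 0.09). The 95% intervals of all 44 members lay within 1 log2 unit of 0, with -0.94 the lowest and 0.67 the highest limit of any gene. For each gene, a change within its own interval was not excluded. Goblet cell markers differed between these tumors (2 of 6 higher in BSHhigh, summing to 50.1 to 111.7 and 498 to 4220 CPM), as did differentiated colonocyte markers (2 of 6 higher). Of the 100 pathway genes, none was called.

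The spread between tumors of a group was shared by many of the members. Among BSHlow tumors, replicate 2 was the highest in 43 of 44 members, and replicates 1 and 4 were the lowest in 26 and 18. The 20 mitotic, checkpoint, spindle and kinetochore genes summed to 592, 1156, 997 and 579.8 CPM in the BSHlow tumors and 809, 616 and 935 in the BSHhigh tumors. The 15 licensing, helicase, fork and nucleotide genes summed to 755, 1255, 1055 and 819 CPM (BSHlow) and 1030, 904 and 882 CPM (BSHhigh). In the BSHlow tumors both sums were high in replicates 2 and 3 and low in replicates 1 and 4. In the BSHhigh tumors the mitotic genes were all 20 highest in replicate c and all 20 lowest in replicate b, whereas 12 of the 15 replication genes were highest in replicate a.

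Replication and mitotic genes parted most in BSHlow non-tumor tissue. There, replicate 4 was the highest in 13 of 15 replication genes and the lowest in all 20 mitotic genes. Replicate 3 was the highest in 19 of 20 mitotic genes and the lowest in 12 of 15 replication genes. The replication genes summed to 337, 374, 292 and 515 CPM and the mitotic genes to 359, 341, 451 and 191. The mitotic sum divided by the replication sum was 1.06, 0.913, 1.54 and 0.3704 in these libraries, 0.874, 0.896, 0.743 and 0.735 in BSHhigh non-tumor tissue, 0.785, 0.921, 0.945 and 0.708 in BSHlow tumors and 0.785, 0.682 and 1.06 in BSHhigh tumors. At 2 weeks it was 1.17, 0.866, 1.39 and 1.07 in BSHlow and 0.755, 1.03, 1.03 and 0.737 in BSHhigh mice. The lowest and the highest of the 23 ratios thus both came from BSHlow non-tumor tissue. Genes with and without the CHR letters in their 250 bases were found on both sides of this split. *Mcm2* (19.7, 24.3, 20.6 and 37.99 CPM), *Mcm7* (in 1 of its 2 windows) and *Cdc45* hold these letters and were highest in replicate 4. So were *Mcm5* (20.3, 26.7, 15.8 and 37.1 CPM), *Mcm6*, *Mcm3*, *Cdc6*, *Cdt1*, *Pcna*, *Rrm1* and *Tyms*, which do not. *Plk1* (14.7, 12.7, 16.97 and 5.55 CPM) does not hold these letters and was lowest in replicate 4. The same held for *Aurka*, *Birc5*, *Bub1*, *Ccnb1*, *Cenpe*, *Cenpf* and *Kif23*. *Cdk1* (19.8, 19.1, 22.4 and 16.4 CPM) holds the letters and was also lowest in replicate 4. So were *Bub1b*, *Ccnb2*, *Cdc20*, *Kif11*, *Kif14*, *Kif15*, *Mki67*, *Top2a* and *Ube2c*, which hold them too. Members without a promoter entry are left out here. Other forms of the CHR were not searched, and its part in the split was not tested. *Mki67* was at 130.9 CPM in replicate 3 and 59.2 in replicate 4. Replicate 4 also had the highest differentiated colonocyte markers of its group (4505 CPM, the rest 1764 to 3175) and the lowest smooth muscle (1581), fibroblast (314) and B cell markers (11.6, the rest 94.3 to 187.7). Their part in the result was not tested. Without replicate 4, 43 members were still called higher in BSHlow tumors.

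**Figure D3:**
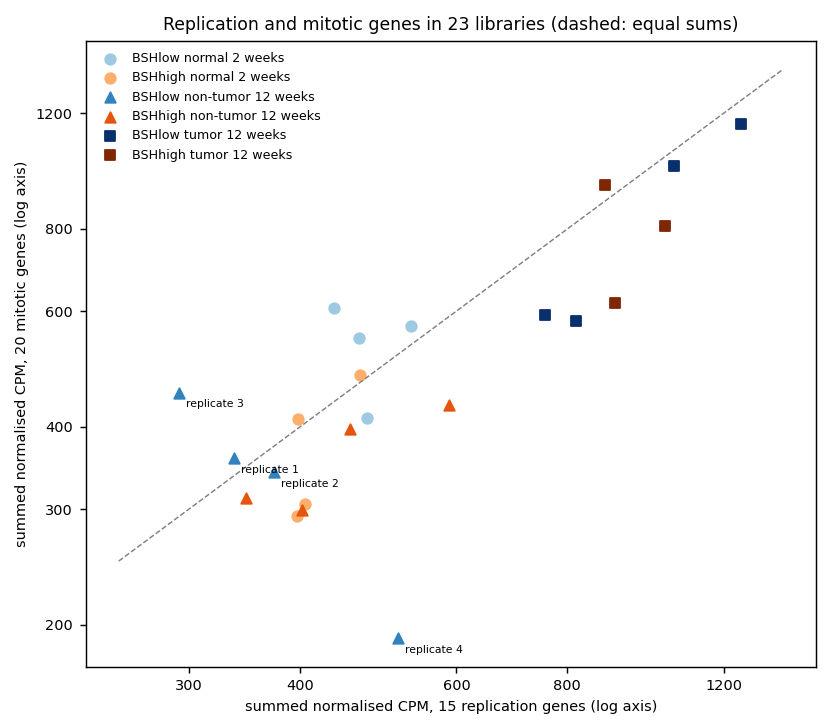
Summed normalised CPM of 15 replication genes (x) and 20 mitotic genes (y) in the 23 libraries, both on log axes, with 1 point per library and a dashed line where the sums are equal. The 7 tumors lie at the upper right, with replication sums of 755 to 1255, and replicate 4 of BSHlow non-tumor tissue lies farthest below the line (515 and 190.9). The line only helps to compare libraries, since gene length was not taken into account and equal sums have no meaning of their own.

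In non-tumor tissue at 12 weeks, BSHhigh and BSHlow mice were compared with 4 libraries each. None of the 44 members was called, and neither was any of the 14933 genes tested (0%). At an unadjusted p under 0.05, 2 members and 1377 genes passed in edgeR, and DESeq2 and limma-voom called no member. Of the members, 38 were above 0, with a median log2 fold change of 0.20 against -0.01 over all genes tested. Without replicate 4 of BSHhigh mice the median was 0.10 with 29 above 0, and without replicate 4 of BSHlow mice it was 0.24 with 29 above 0. The largest was *Mybl2* (log2 fold change 0.83, SE 0.34, adjusted p = 0.516), and the smallest was *Ccnb2* (log2 fold change -0.17, SE 0.31, adjusted p = 0.905). *Cdk2* was the other with an unadjusted p under 0.05 and the only member whose groups did not overlap, at 16.2, 15.2, 10.5 and 14.7 CPM in BSHlow and 21.4, 18.05, 18.5 and 25.8 in BSHhigh mice (log2 fold change 0.55, SE 0.17, adjusted p = 0.407). Such a separation, BSHhigh above BSHlow, occurred in 3.23% of the genes tested. All 10 licensing and helicase genes were above 0 (0.15 to 0.53), whereas the spindle and kinetochore genes had a median of 0.01. In BSHhigh mice, replicate 4 was the highest in 37 of 44 members.

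In normal colon at 2 weeks, none of the 44 members was called by edgeR, where 0.00727% of the 13752 genes tested (1 gene) were called higher and 0% lower. Of the members, 43 had values below 0 (lower in BSHhigh mice) and 1, *Ccne2*, above 0, with a median log2 fold change of -0.45 against -0.00 over all genes tested. At an unadjusted p under 0.05, 22 of 44 members passed, and 935 genes in all. The smallest adjusted p was that of *Pclaf* (log2 fold change -0.58, SE 0.10, adjusted p = 0.319), which was at 33.8, 34.01, 38.6 and 38.2 CPM in BSHlow and 21.5, 25.8, 26.5 and 23.6 in BSHhigh mice. *Kif14*, a kinesin of cytokinesis, had the largest difference (log2 fold change -1.13, SE 0.20, adjusted p = 0.323) and was at 6.52, 6.17, 8.33 and 9.35 CPM (BSHlow) and 2.997, 3.83, 4.01 and 3.12 CPM (BSHhigh). These 2 genes, with *Rrm2* and *Kif15*, were the 4 whose BSHhigh libraries were all below the BSHlow libraries, which occurred in 1.55% of the genes tested, and no member had them all above (2.09% of genes). DESeq2 called *Pclaf* and *Kif14* lower (adjusted p = 0.00179 and 0.00237), where edgeR and limma-voom called none. The share of all genes that DESeq2 called lower is not given here. Over all alternatives the adjusted p went up to 0.818 for *Pclaf* and 0.712 for *Kif14*. *Ccne2*, the member with the largest value on the other side, was at 9.78, 12.7, 6.16 and 9.35 CPM in BSHlow and 11.9, 7.87, 11.5 and 15.4 in BSHhigh mice (log2 fold change 0.28, SE 0.25, adjusted p = 0.887).

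By role, the values at 2 weeks were lower for genes of mitosis than for those of licensing, a difference that was not tested. The mitotic cyclin, kinase and checkpoint genes were between -0.64 and -0.42 and the spindle and kinetochore genes between -1.13 and -0.46, whereas the licensing and helicase genes were between -0.44 and -0.01. *Mki67* was at 147, 102, 168 and 191 CPM in BSHlow and 96.1, 124, 115 and 82.3 in BSHhigh mice (-0.55, 95% interval -0.98 to -0.13). *Top2a* was at 93.2, 65.9, 95.1 and 110.1 CPM (BSHlow) and 50.2, 66.9, 79.05 and 49.1 CPM (BSHhigh) (-0.58, -0.99 to -0.16). For both, the groups overlapped because replicate 2 of BSHlow mice was low and replicates 2 and 3 of BSHhigh mice were high. *Cdk1* was at 36.6, 28, 32.4 and 28.7 CPM (BSHlow) and 17.3, 25.2, 30.9 and 20.1 CPM (BSHhigh). *Ccnb1* was at 37.5, 25.9, 36.5 and 31.8 CPM (BSHlow) and 18.3, 23.5, 28.8 and 20.6 CPM (BSHhigh). In both, replicates 1 and 4 of BSHhigh mice were the lowest of the 8 libraries. *Plk1* was at 17.9, 12, 24.8 and 22.4 CPM (BSHlow) and 10.99, 14.3, 16.7 and 7.61 CPM (BSHhigh). *Cdc20* was at 30.6, 17.8, 38.1 and 33.9 CPM (BSHlow) and 15.7, 27.8, 27.8 and 16.7 CPM (BSHhigh). Their BSHlow replicate 2 lay within the BSHhigh libraries. *Birc5* was at 27.4, 29.2, 32.4 and 29.2 CPM (BSHlow) and 14.98, 24.9, 28.9 and 16.3 CPM (BSHhigh). *Kif11* was at 40.4, 34.9, 34.3 and 40.4 CPM (BSHlow) and 24.97, 25.5, 38.1 and 20.4 CPM (BSHhigh). For these genes replicate 3 was the highest BSHhigh library.

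Of the 15 replication genes, *Pclaf* and *Rrm2* were those that did not overlap at 2 weeks. *Mcm2* was at 26.2, 26.3, 23.4 and 34.9 CPM in BSHlow and 19.98, 24.5, 31.99 and 23.5 in BSHhigh mice. *Mcm5* was at 35.7, 34.8, 32.9 and 39.3 CPM (BSHlow) and 31.96, 30.6, 37.2 and 27.96 CPM (BSHhigh). Both ranges overlapped, and the differences were -0.16 (95% interval -0.53 to 0.21) and -0.17 (-0.41 to 0.07). *Cdc6* was at 3.94, 6.42, 4.74 and 7.24 CPM (BSHlow) and 3.63, 5.08, 3.93 and 3.93 CPM (BSHhigh). *Pcna* was at 108, 104, 84.5 and 99.7 CPM (BSHlow) and 91.5, 84.9, 104 and 100.1 CPM (BSHhigh). The difference for *Pcna* was -0.07 (95% interval -0.30 to 0.16), among the smallest of the members. *Tyms* was at 26, 28.7, 21.6 and 25.8 CPM (BSHlow) and 25.4, 21.6, 25.98 and 23.2 CPM (BSHhigh). *Rrm2* was at 16.4, 19.8, 32.2 and 19.9 CPM (BSHlow) and 13.6, 12.1, 16.1 and 12.1 CPM (BSHhigh). The BSHlow libraries of *Rrm2* were all higher, led by replicate 3 (log2 fold change -0.72, SE 0.21, adjusted p = 0.611). *Ccne1* was at 6.14, 4.92, 6.72 and 5.48 CPM (BSHlow) and 4.09, 6.26, 5.42 and 6.09 CPM (BSHhigh). *Cdk4* was at 66.9, 69.9, 68.4 and 72.5 CPM (BSHlow) and 56.1, 72.8, 68.6 and 62.2 CPM (BSHhigh). Both overlapped (-0.10 and -0.10). *E2f1* was at 6.899, 8.67, 7.104 and 8.23 CPM (BSHlow) and 6.36, 6.77, 5.64 and 7.45 CPM (BSHhigh). *Foxm1* was at 14.7, 16, 20.2 and 19.6 CPM (BSHlow) and 9.08, 14.2, 16.4 and 10.2 CPM (BSHhigh). *Mybl2* was at 9.55, 7.67, 9.38 and 11.7 CPM (BSHlow) and 10.9, 8.02, 8.98 and 6.73 CPM (BSHhigh). Of these factors, *Foxm1* had the value farthest from 0 (log2 fold change -0.50, SE 0.20, adjusted p = 0.711). Crypt stem cell markers, whose sums were 158 to 176 CPM in BSHlow and 131 to 175 in BSHhigh mice, overlapped, and none of the 6 was called. Of the pathway genes, 99 were tested and none was called.

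**Figure D4:**
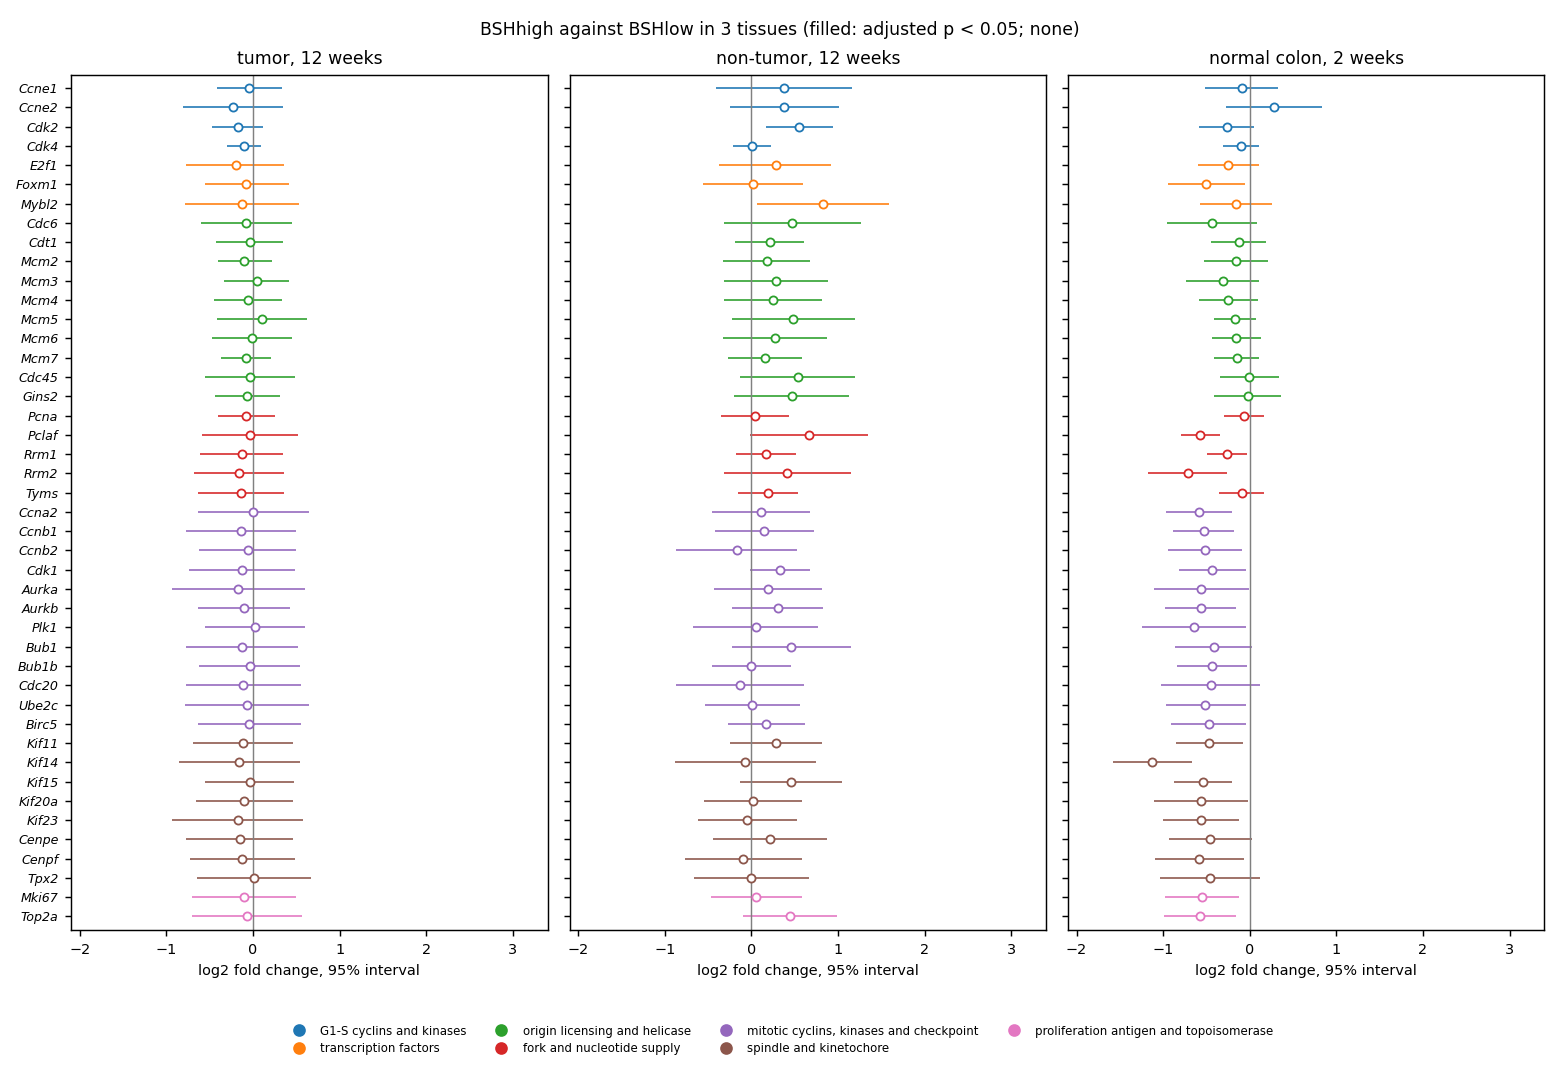
Log2 fold change of each of the 44 genes, BSHhigh against BSHlow, with 95% intervals from edgeR, in tumors (left), non-tumor tissue at 12 weeks (middle) and normal colon at 2 weeks (right). No point is filled, since no adjusted p was under 0.05. The values lie between -0.23 and 0.10 in tumors, whereas 43 of 44 lie below 0 at 2 weeks.

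Non-tumor tissue at 12 weeks was compared with normal colon at 2 weeks within each kind of mouse. These comparisons share their libraries with those above. In BSHlow mice, 16 of 44 members were lower at 12 weeks and none was higher, where 20.7% of the 14555 genes tested were called lower and 22.4% higher. The median of the members was -0.60 against -0.02 over all genes tested, and all 44 were below 0. The largest differences were those of *Mybl2* (log2 fold change -1.39, SE 0.27, adjusted p = 0.00277) and *Pclaf* (log2 fold change -1.33, SE 0.19, adjusted p = 0.000523), followed by *Kif15* (-1.08) and *Rrm2* (-1.07), and the smallest was that of *Cdk4* (-0.04, 95% interval -0.28 to 0.19). *Pclaf* was at 33.8, 34.01, 38.6 and 38.2 CPM at 2 weeks and 17.3, 15.2, 9.199 and 16.3 at 12 weeks. *Kif15* was at 14.03, 13.6, 18.4 and 17.1 CPM at 2 weeks and 7.04, 7.21, 9.81 and 6.06 at 12 weeks. In both genes every library of 12 weeks was below every library of 2 weeks, as in 14 members in all, where 18.7% of genes tested were so placed. A log2 fold change under -1 came with the call in 4 members and in 7.59% of genes. Also called were *Cdk1* (-0.71), *Birc5* (-0.87), *Top2a* (-0.78), *Aurkb* (-0.88), *Kif11* (-0.76), *Cdk2* (-0.73), *Ube2c* (-0.98), *Ccna2* (-0.87), *Foxm1* (-0.74), *Cdt1* (-0.61), *Ccnb1* (-0.81) and *Aurka* (-0.97). The 6 MCM genes and *Pcna* were not, with values from -0.52 (*Mcm5*) to -0.09 (*Pcna*).

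In BSHhigh mice, 1 member was higher at 12 weeks and none was lower, where 27.1% of the 14638 genes tested were called higher and 23.9% lower. None combined a call with a log2 fold change over 1, as 15.9% of genes did. The member called was *Kif14* (log2 fold change 0.77, SE 0.23, adjusted p = 0.0219), at 2.997, 3.83, 4.01 and 3.12 CPM at 2 weeks and 5.75, 4.85, 4.67 and 8.38 at 12 weeks, without overlap. In BSHlow mice it was at 6.52, 6.17, 8.33 and 9.35 CPM at 2 weeks and 5.85, 6.13, 9.95 and 2.77 at 12 weeks, which overlapped (log2 fold change -0.32, SE 0.34, adjusted p = 0.483). The other members were between -0.49 (*Ccne2*) and 0.41 (*Mcm3*), and the median was 0.04 against 0.02 over all genes tested, with 26 members above 0. Without replicate 4 of non-tumor tissue the median was -0.13 with 13 above 0, without replicate 4 of 2 weeks it was -0.05, without replicate 1 of non-tumor tissue it was -0.02, and without each of the others it was between 0.00 and 0.11. *Ccne2* was at 11.9, 7.87, 11.5 and 15.4 CPM at 2 weeks and 8.31, 5.6, 6.67 and 12.3 at 12 weeks. Among fits on other sets of libraries, the *Kif14* call was lost without replicate 4 of BSHhigh non-tumor tissue, without replicates 1 or 4 of BSHhigh mice at 2 weeks, and with all 23 libraries in 1 fit. On total counts alone, 9 members were called higher in BSHhigh mice and 9 lower in BSHlow mice. There the median of all genes moved from 0.02 to 0.30 and from -0.02 to 0.22. The share of all genes called on total counts is not given here, so these counts are not read against it. All 8 smooth muscle and all 6 fibroblast markers were higher at 12 weeks in both kinds of mice, and 4 of 8 (BSHlow) and 5 of 8 (BSHhigh) epithelial markers were lower. Their part in the result was not tested, and time and the makeup of the tissue cannot be told apart here.

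**Figure D5:**
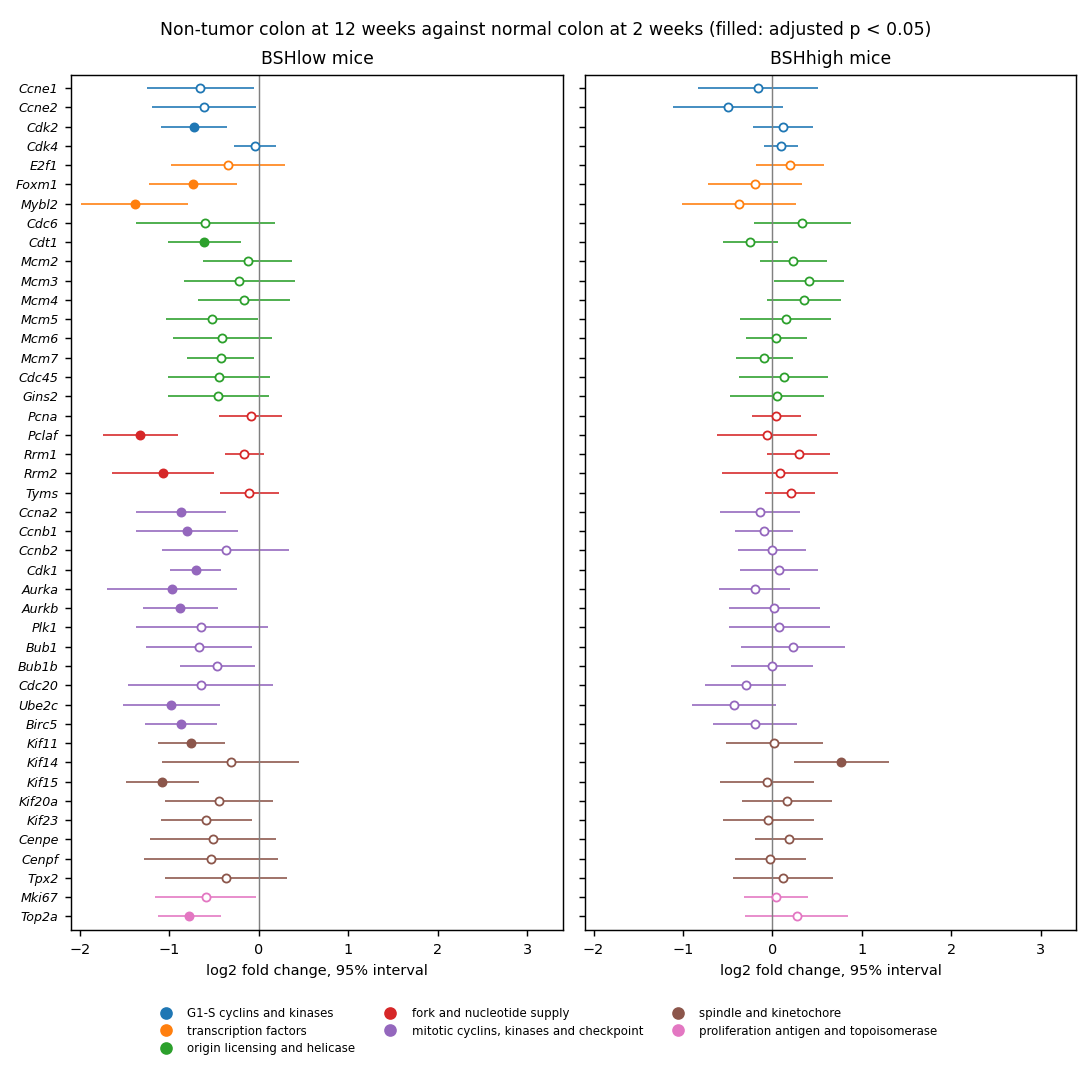
Log2 fold change of each of the 44 genes, non-tumor tissue at 12 weeks against normal colon at 2 weeks, with 95% intervals from edgeR, in BSHlow mice (left) and BSHhigh mice (right), colored by role and filled where the adjusted p was under 0.05. In BSHlow mice 16 points are filled and all lie below 0, and in BSHhigh mice the only filled point is *Kif14* at 0.77.

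Among 99 pathway genes tested over the same interval, 40 were lower and 2 higher in BSHlow mice, where 20.7% and 22.4% of all genes were. In BSHhigh mice 15 were lower and 2 higher, where 23.9% and 27.1% of all genes were. The 2 higher genes were *Ccnd2* (1.33 and 1.5) and *Ccnd3* (0.37 and 0.48), both D-type cyclins. In BSHlow mice *Cdc7*, a kinase that fires origins, had the lowest value (log2 fold change -1.41, SE 0.36, adjusted p = 0.0106), followed by *Cdk6*, which resembles *Cdk4* in function (log2 fold change -1.25, SE 0.14, adjusted p = 0.000177). In BSHhigh mice the lowest were the inhibitors *Cdkn1c* (log2 fold change -1.88, SE 0.20, adjusted p = 0.000103) and *Cdkn2b* (log2 fold change -1.43, SE 0.14, adjusted p = 7.38e-05).

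Whether the difference between BSHhigh and BSHlow mice itself differed was tested with interaction terms. Between tumor and non-tumor tissue, no member was called, where 0.978% of the 16454 genes tested were called higher and 0.0122% lower. The smallest adjusted p was that of *Cdk2* (log2 fold change -0.72, SE 0.22, adjusted p = 0.203), and the value farthest from 0 was that of *Mybl2* (-0.94, adjusted p = 0.567). At an unadjusted p under 0.05, 1 member passed, and 1580 genes in all. Between 12 weeks and 2 weeks, no member and none of the 15532 genes tested was called (0%), although all 44 members were above 0 with a median of 0.58 and 15 had an unadjusted p under 0.05, as did 1135 genes in all. *Pclaf* had the largest value, 1.26 (SE 0.33, adjusted p = 0.377), and *Ccne2* the smallest, 0.11 (SE 0.39). The 16 members lower in BSHlow mice at 12 weeks and the 1 higher in BSHhigh mice were thus not shown to differ between the kinds of mice.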

How the data were processed

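Colon tissue was sequenced in 23 libraries, which were grouped by GEO's labels. The authors used Cutadapt for trimming, STAR for alignment (mm10) and Picard for quality checks, and deposited RSEM expected counts per gene, with versions not given in the sources used here. The labels name a total RNA kit and the study's methods an mRNA kit, both stranded. The 3 columns placed with BSHhigh tumors repeat names of BSHlow tumors in the file header. They were assigned as a group because their values match a table that the study labels BSHhigh tumors, row for row (1996 of 1996), and they are called a, b and c.

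Expected counts were rounded (4.24% of values were not whole) and totalled 12401388 to 17903008 per library. In the 33 replicate pairs, chi-square per degree of freedom was between 16.59 and 126.1, so no library was a duplicate of another in its group. Pairs from different groups were not compared in this way. Genes were filtered with filterByExpr, scaled by TMM and tested with edgeR 4.0.16 (R 4.3.3) by the quasi-likelihood F-test, with Benjamini-Hochberg adjustment over all genes tested and calls at an adjusted p under 0.05. Within-tissue comparisons and time comparisons were each fitted on their 2 groups. Tumor comparisons and the interactions, that of time included, were fitted on 4 groups. Intervals are from the t distribution with the fit's degrees of freedom. CPM in the text use TMM over all 23 libraries. The fits were tested on simulated data. DESeq2 1.42.0, limma-voom (limma 3.58.1), other scalings and filters, a block on replicate number and fits without each library in turn were the alternatives.

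The members and lists were chosen with earlier results of these data known. The genes given in full are 19 members fixed by role, the members with the largest and smallest values or the only call in a comparison, and the 2 highest and 2 lowest called pathway genes. *Ccnd1* and the promoters shown were added after their values were seen.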

Additional observations from a re-analysis of the deposited data

Results flagged for a closer look

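Among 220 sets of 4 libraries (44 members in 5 groups), 3 held a library whose distance to the nearest of the others was past Dixon's 95% critical value, as a share of the whole range on the log2 scale. Chance alone gives about 1 in 20, or 11 sets, so that 3 are fewer than chance gives, and BSHhigh tumors, with 3 libraries, were not tested in this way. *Gins2*, a subunit of the replicative helicase, was at 8.32 CPM in replicate 4 of BSHlow non-tumor tissue, where the others were at 4.43 to 4.87. *Cenpe*, a kinetochore motor, was at 7.16 CPM in the same library, where the others were at 17.97 to 21.3. *Rrm1*, a subunit of ribonucleotide reductase, was at 48.9 CPM in replicate 4 of BSHlow normal colon at 2 weeks, where the others were at 44.8 to 45.5.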

How the results depend on the processing

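In the 9 comparisons, edgeR was set against RLE scaling, total counts alone, no filter on low counts, DESeq2, limma-voom, other choices of samples in the fit and an added threshold of 1 on the absolute log2 fold change. Apart from that threshold, the share of all genes called under each alternative is not given here. The counts below thus show only whether members kept their calls. The tumor comparisons kept their direction, with 43 to 44 members higher in BSHlow mice and 33 to 40 in BSHhigh mice when 1 library was left out, and with 36 and 29 past a log2 fold change of 1. No member was called between BSHhigh and BSHlow mice or in an interaction under any alternative, except that DESeq2 called 2 lower at 2 weeks. Members lower at 12 weeks in BSHlow mice numbered 9 on total counts, 4 past a log2 fold change of 1, and 13 to 22 with 1 library left out, the most without replicate 4 of BSHlow non-tumor tissue. In BSHhigh mice, members higher at 12 weeks numbered 9 on total counts, 0 past a log2 fold change of 1 and 0 with all 23 libraries in the fit. With 1 library left out they numbered 0 to 3, with 3 without replicate 2 and 0 without replicate 4 of non-tumor tissue, and 2 without replicate 3 and 0 without replicates 1 or 4 of 2 weeks. Members lower there numbered 0 to 2, with 2 without replicate 4 of non-tumor tissue and 1 without replicate 4 of 2 weeks. The cause was not tested. For the 19 genes given in every library, no direction reversed with a call. Replicate numbers are shared across groups, but same-numbered libraries correlated at -0.22 to 0.32 in their deviations, so the numbers were not taken as pairs. A replicate block called 44 members higher in BSHlow tumors, 19 lower at 12 weeks in BSHlow mice, and 0 higher (*Kif14* not called) and 1 lower in BSHhigh mice. The 95% intervals between BSHhigh and BSHlow tumors reached -0.94 and 0.67.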
